A study of Mus musculus with 73 samples.

Results

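The data described here are the wild-type 5C map of the X-inactivation centre in male mouse embryonic stem (ES) cells. They are the 2 libraries titled 5C_WT #1 and 5C_WT #2 (replicate 1 and replicate 2 below), chosen by title, of the 10 5C libraries analysed and of 73 samples in the series. The cells were E14Tg2a, a feeder-independent line of the strain 129/Ola with 1 X and 1 Y chromosome, kept on gelatin with serum and leukemia inhibitory factor, so each cell contributed 1 copy of the locus. The other 8 libraries came from edited E14Tg2a clones, 2 libraries for each genotype: the deletions XiteE-del and XiteC-del and the inversions XiteE-inv and XiteC-inv, all targeted to Xite by their names, which are set against wild type below. The sources used here do not explain the letters E and C. The sample descriptions give both XiteE-inv libraries the same clone number and the libraries of each other edit different ones. Nothing in the labels says that the wild-type libraries came from separate cultures, so p-values measure the spread between these libraries, which may be technical.

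The X-inactivation centre is the stretch of the X chromosome from which X inactivation is controlled. It holds Xist, whose RNA coats and silences the chromosome in cis, and Tsix, which is transcribed antisense to Xist and holds it off in undifferentiated ES cells, with Xite as an enhancer of Tsix. In the RefSeq gene order (GRCm38.p6, used for order alone) genes of the locus come in the order Nap1l2, Cdx4, Chic1, Tsx, Tsix, Xist, Jpx and Ftx with rising coordinates. 5C ligates restriction fragments that lie close together in fixed nuclei and counts the junctions with forward and reverse primers at chosen fragments, so that a count belongs to 1 forward and 1 reverse fragment. Topologically associating domains are stretches within which fragments contact each other more than their linear distance alone would give, and a border is the place where contacts across fall off. The locus is known as one where the Xist and Tsix promoters lie on either side of such a border. No mm9 gene annotation was used, so the positions below are not assigned to genes.

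The primer lists covered X:98831149-103425147 (mm9, 4.59 Mb) with 511 forward and 528 reverse primers, on fragments with a median length of 2021 bases, which allows 269808 pairs. A control region on chromosome 5 had 26 primers of each kind. Replicate 1 held 16811959 counts and replicate 2 held 16267499, within the range of 16267499 to 23928188 over the 10 libraries. Of the 269808 pairs, 58.1% were seen in replicate 1 and 54.0% in replicate 2. In 30 kb bins the region has 154 bins, of which 9 hold no primer. These are the bins of the gaps at X:99911149-100091148 and X:100211149-100271148, and the partial last bin. Replicate 2 and XiteE-inv replicate 2 carry the code B101 in their labels and the other 8 libraries B100, and the labels do not say what the code means. The B101 libraries stood apart: counts between X and chromosome 5, which join different chromosomes, made up 0.281% and 0.282% of the total in the B101 libraries, against 1.20% to 1.76% in the B100 libraries. Replicate 1 is B100 and replicate 2 is B101, and each result on the wild-type map is given for both.

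The fragments that the deletions remove were sought as those with under 5% of the wild-type mean in both libraries of a deletion. The forward fragment at X:100629520-100633845 had 1124 and 833 counts in the XiteE-del libraries, against 43054 and 49625 in wild type. The forward fragment at X:100636563-100639613 had 1574 and 1445 counts in the XiteC-del libraries, against 36559 and 40639 in wild type. The low share in the deletion libraries is the rule that chose these fragments and is not a check of the labels. Outside that rule, the first fragment had 60237 and 47920 counts in the XiteC-del libraries. The second had 37495 and 50011 counts in the XiteE-del libraries. Both are called the Xite fragments below.

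The wild-type map was divided by 8 borders into 9 domains. Contacts are given as observed over expected (O/E), where the expected count of a primer pair comes from the strength of its primers and the mean decay with distance in the same library, so 1 is an average contact at that distance. Insulation at a bin edge is the log2 O/E of the square that joins the 150 kb on one side to the 150 kb on the other, and a border is a local minimum with a prominence of at least 0.5. Ordered along the chromosome, the borders lay at X:99431148, X:99671148, X:100421148, X:100661148, X:101261148, X:101981148, X:102311148 and X:102971148, each with the resolution of a 30 kb bin. Border 7 was the deepest in the mean map at -0.92, border 4 followed at -0.88, and border 2 was the shallowest at -0.13. In replicate 1 alone border 4 was deeper than border 7, at -0.82 against -0.77. With the median over primer pairs of each bin pair border 4 was the deeper in the mean map too, at -1.16 against -1.05.

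**Figure D1:**
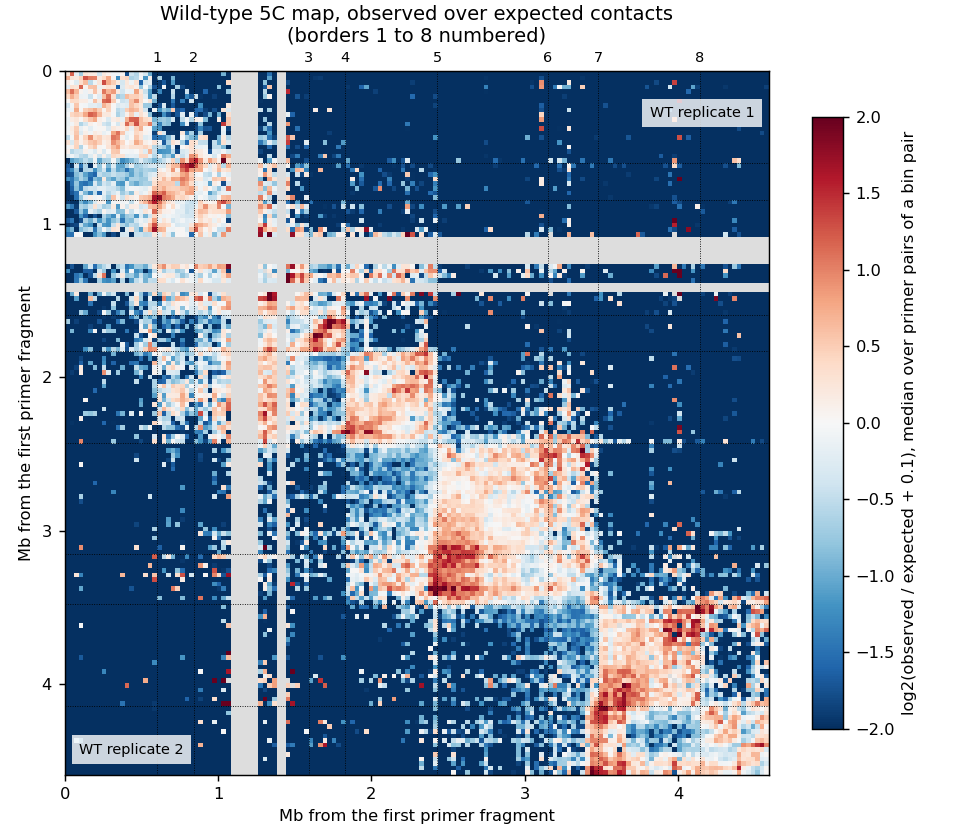
Observed over expected contacts of the wild-type libraries for pairs of 30 kb bins, as the median over the primer pairs of a bin pair on the scale log2(O/E + 0.1), replicate 1 above the diagonal and replicate 2 below it; both axes are Mb from the first primer fragment, dotted lines are the 8 borders and grey bins hold no primer. Red blocks along the diagonal end at borders and the blue far from the diagonal marks bin pairs whose typical primer pair has few or no counts.

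Border 4, at X:100661148, is the border next to the Xite fragments, which end 27.3 kb and 21.5 kb before it. Its insulation was -0.82 in replicate 1 and -0.94 in replicate 2. The square across it had O/E 0.567 and 0.522 in these libraries, against 1.41 and 1.32 within the 150 kb before it and 1.14 and 1.32 within the 150 kb after it. Both libraries thus had more than the average contact on each side of this border and little more than 50% of it across. Border 1 had insulation of -0.66 in replicate 1 and -0.65 in replicate 2, and border 3 had -0.56 and -0.65. Border 5 had -0.76 and -0.72, and border 8 had -0.68 and -0.73. At these 5 borders, 1, 3, 4, 5 and 8, the libraries differed by less than 0.13 on the log2 scale.

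The other borders were less uniform. Border 2 was a dip within well-connected sequence, at 0.04 in replicate 1 and -0.32 in replicate 2. By summed counts only replicate 2 thus had fewer contacts across it than its expected count. With the median over primer pairs of each bin pair its insulation was -0.29 and -0.38, below the expected count in both libraries. Border 6 had -0.42 and -0.41, but was called in replicate 1 and not in replicate 2. Border 7 was the lowest point of a broad trough: replicate 1 alone placed its minimum at X:102251148 and replicate 2 alone at X:102311148. At X:102251148 the insulation was -0.79 in replicate 1 and -1.04 in replicate 2, so both libraries were low at either position. Each border called in 1 library was then read in the other. Of 8 borders called in replicate 1, 6 were called within 1 bin in replicate 2, where they had a median insulation of -0.69. Of 7 borders called in replicate 2, 6 were called in replicate 1. Insulation followed the same course in both libraries, with a median absolute difference of 0.14 and Pearson's r of 0.961 over 136 edges (a description, since neighbouring edges share primer pairs and both libraries share the primers).

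**Figure D2:**
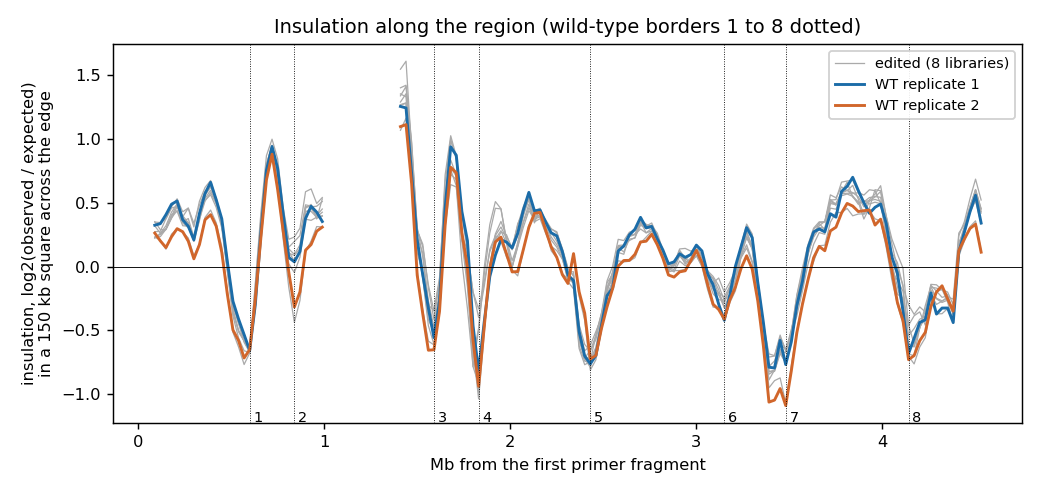
Insulation at each 30 kb edge, as log2 O/E of the 150 kb square across it, against the distance in Mb from the first primer fragment, for the 8 edited libraries (grey) and both wild-type libraries. The wild-type traces fall together at borders 1, 3, 4, 5 and 8 and replicate 2 lies lower at borders 2 and 7. At border 4 the grey traces run from -0.331 to -1.03.

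The edited libraries had the same set of dips. Borders 1 to 5 and 8 were each called within 1 bin in 8 of 8 edited libraries, border 6 in 6 and border 7 in 1, the edited traces having their minimum elsewhere in the same trough. For the test of insulation, borders were called in the mean of all 10 libraries with the primers kept in each, which gave 8 borders, the seventh at X:102221148. At border 4 the edited libraries averaged -0.69 ± 0.29 and wild type -0.86 ± 0.08 (SD, n = 8 and n = 2). That edited mean lies between separate groups: the XiteC libraries averaged -0.43 ± 0.09 and the XiteE libraries -0.95 ± 0.04 (SD, n = 4 each). At border 1 the edited libraries averaged -0.66 ± 0.02 and wild type -0.65 ± 0.0028. No border passed an exact two-sided permutation test of edited against wild-type libraries over the 45 splits, adjusted over the 8 borders by Benjamini-Hochberg. The differences (edited minus wild type) ran from -0.01 to 0.17 and the adjusted p from 0.489 to 0.733. With 2 wild-type libraries the smallest unadjusted p is 0.0222, and a border that reached it alone could not pass after adjustment. A p that misses the threshold here thus does not show that the borders were equal.

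Contacts between fragments of the same domain were more frequent than contacts across a border at the same distance. At 60 to 120 kb a primer pair averaged 203 counts within a domain and 116 across a border in replicate 1, and 236 within and 133 across in replicate 2. That is a ratio of 1.75 and 1.78, and over the 4 distance classes from 30 to 480 kb the ratio ran from 1.49 to 1.86. Since the borders were called on these maps, the ratios describe the division and do not test it. Primer pairs within a domain are 12.6% of those used and held 47.8% of the counts in replicate 1 and 61.9% in replicate 2 (95% Wilson intervals of 47.79% to 47.85% and 61.84% to 61.90%, which cover counting error only). The share expected from primer strength and distance alone was 43.9% in replicate 1 and 56.8% in replicate 2. In the edited libraries the share was 63.0% in XiteE-inv replicate 2, the B101 library, and 47.1% to 51.3% in the others.

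The 9 domains measured 600, 240, 750, 240, 600, 720, 330, 660 and 454 kb in chromosome order, the first and last being cut off by the ends of the primer region. Domain 4, X:100421149-100661148, holds both Xite fragments and was the most self-contacting: its O/E was 1.37 in replicate 1 and 1.32 in replicate 2. Domain 8, X:102311149-102971148, followed in replicate 1 with 1.29 and had 1.21 in replicate 2, and domain 2, X:99431149-99671148, had 1.23 and 1.25. Domain 5, X:100661149-101261148, on the other side of border 4, had 1.06 and 1.12. Domain 6, X:101261149-101981148, held the most counts of any domain, 12.8% in replicate 1 and 15.9% in replicate 2, with an O/E of 1.104 and 1.081. Every domain named so far had more contact with itself than its distances and primers gave. Domain 7, X:101981149-102311148, was below average in both libraries at 0.724 and 0.789. The end domains had 1.17 and 1.09 in domain 1 and 0.913 and 0.973 in domain 9. Domain 3, X:99671149-100421148, includes both primer gaps, so its 1.23 and 1.11 rest on 45 forward and 43 reverse primers. Within it, insulation had no value between the edges at 0.99 and 1.41 Mb from the first primer fragment. No border could be called in that stretch, so it is not known whether domain 3 is undivided.

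Neighbouring domains differed in how much they contacted each other. Contacts between domains 7 and 8 had an O/E of 0.609 in replicate 1 and 0.485 in replicate 2, the lowest of any neighbours by summed counts. Contacts between domains 4 and 5, across border 4, had 0.763 and 0.605, and between domains 5 and 6 they had 0.8004 and 0.7558. Domains 6 and 7 were the exception, with 1.24 and 1.31 across border 6, more than domain 7 had with itself. Domain 7 also contacted domain 5, across domain 6, with 1.41 and 1.67. By the median over primer pairs, which a single high pair cannot move, domains 5 and 6 were the lowest neighbours in replicate 1, at 0.121 against 0.212 for domains 7 and 8. By the same measure domains 6 and 7 had 0.960 in replicate 1 and 1.26 in replicate 2, and domains 5 and 7 had 0.124 and 0.998. The typical primer pair of domains 5 and 7 thus had no excess over 1 in either library, and lay far below 1 in replicate 1.

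The Xite fragments contacted domain 4 on one side far more than domain 5 on the other. The fragment at X:100629520-100633845 had 49.2% of its counts in replicate 1 within domain 4 and 11.03% in domain 5, and 49.2% and 11.004% in replicate 2 (Wilson intervals of 48.8% to 49.7% and 48.8% to 49.6% for domain 4). At 30 to 200 kb its partners towards lower coordinates averaged 681 counts and those towards higher coordinates 112 in replicate 1, from 20 and 22 partners. In replicate 2 they averaged 804 and 115. The lower side was thus 6.09-fold higher in replicate 1 and 6.98-fold in replicate 2. The O/E was 2.81 on the lower and 0.437 on the higher side in replicate 1, and 2.33 and 0.340 in replicate 2. The fragment at X:100636563-100639613 averaged 420 counts on the lower and 83.3 on the higher side in replicate 1, and 512 and 103 in replicate 2, a ratio of 5.04 and 4.96. Both libraries had this one-sidedness to a similar degree, although they differ in their long-range counts. In the XiteC-inv libraries the ratio at the first fragment was 1.124 and 0.9986, in the XiteC-del libraries 2.53 and 2.70, and in the XiteE-inv libraries 4.22 and 6.27, values given here as a description with no test.

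Within domain 4 the contacts of the bin that holds both Xite fragments were uneven. This bin, X:100631149-100661148, also holds other primers, so its values are not those of the Xite fragments alone. Within the domain it contacted most strongly the bin at X:100451149-100481148, 180 kb away near the other end. That pair of bins had 18838 counts in replicate 1 and 24798 in replicate 2, with a median O/E over primer pairs of 3.04 and 2.84. The next bin, X:100481149-100511148, had 2.43 and 2.28. Across border 4 the median O/E at 60 to 120 kb was 0.21 to 0.39 in replicate 1 and 0.33 to 0.44 in replicate 2. Further into domain 5 it was high again at X:101171149-101201148, 540 kb away, with 2.01 and 3.11 from 3176 and 3944 counts. In replicate 2 that is above the value at 180 kb within domain 4. Both libraries thus had a strong partner in each of the domains that border 4 separates, near the far end of each.

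**Figure D3:**
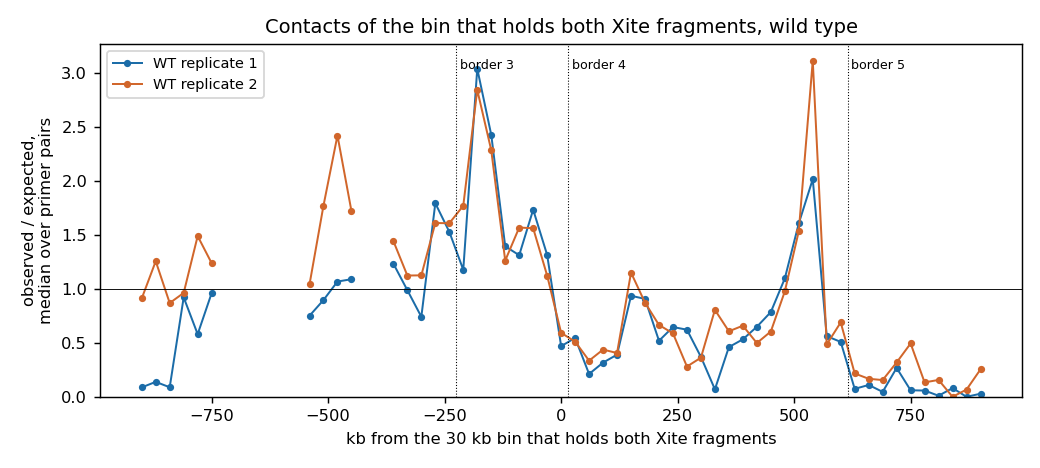
Median observed over expected contacts, over the primer pairs of each bin pair, of the 30 kb bin that holds both Xite fragments with bins up to 900 kb to either side, in both wild-type libraries; negative distances are towards lower coordinates, dotted lines are borders 3, 4 and 5, and breaks are bins with no primer. Both libraries peak at 180 kb towards lower coordinates (3.04 and 2.84), drop past border 4, and peak again 540 kb towards higher coordinates (2.01 and 3.11).

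The first-to-last contact of a domain, its corner, was looked at after such contacts were seen among the strongest ones, so these values are a description. The corner was taken as the 2 first bins against the 2 last bins of a domain, with the median O/E over primer pairs of each bin pair averaged. This average is ranked among single bin pairs of the whole map at the middle of the corner's distances. Many of those cross a border, so the ranks are not against pairs within a domain. In domain 2 it was 2.61 in replicate 1 and 2.35 in replicate 2, above 98.5% of bin pairs at the same distance in each. In domain 8 it was 2.81 and 2.42, above 99.1% in each, and in domain 6 it was 1.86 and 2.71, above 93.04% and 98.26%. In domain 4 it was 1.90 and 2.11, above 94.7% and 97.7%. These 4 domains thus had raised contacts between their ends, relative to such bin pairs, in both libraries. In domain 5 it was 1.16 and 1.51, above 84.9% and 84.0%. Domains 1, 3, 7 and 9 had 0.36 to 0.97 in replicate 1 and 0.51 to 1.32 in replicate 2, above 36.9% to 74.8% of pairs at their distances.

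The counts per primer pair fell with distance in both libraries, and the mean count fell further in replicate 2. At 30 to 60 kb a pair averaged 317 counts in replicate 1 and 387 in replicate 2. At 240 to 480 kb it averaged 69.7 and 73.7 counts. At 480 to 960 kb the median pair had 3 counts in replicate 1 and 19 in replicate 2, and 33.7% and 23.6% of pairs were listed at 0. At 1920 to 3840 kb a pair averaged 16.8 and 5.43 counts, and 54.1% of pairs in replicate 1 and 72.4% in replicate 2 were listed at 0. The slope of log mean count on log distance from 30 kb to 3 Mb was -0.708 in replicate 1 and -0.985 in replicate 2. With the median count of each distance class the order was the other way, at -1.59 and -1.195, over the classes with a median above 0. From 30 to 300 kb the slopes of the mean were close, at -0.719 and -0.771, and from 300 kb to 3 Mb they were -0.668 and -1.27. The libraries thus differed in their far counts: 51.1% of X counts in replicate 1 and 38.7% in replicate 2 joined fragments at least 150 kb apart.

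Slopes of the mean count in the edited libraries split by the same code. XiteE-inv replicate 2 had -0.995, and the 7 edited B100 libraries had -0.707 to -0.785. By the median count XiteE-inv replicate 2 was not apart in that direction, at -1.15 beside -1.197 in XiteC-inv replicate 2 and -1.21 in XiteC-del replicate 1. The edited libraries averaged -0.767 ± 0.097 and wild type -0.846 ± 0.196 (SD, n = 8 and n = 2), and the difference of 0.080 did not pass an exact two-sided permutation test (p = 0.578, 45 splits, smallest possible p 0.0222). Without wild-type replicate 2 the difference was -0.059, and within the B100 libraries it was -0.027, both of the opposite sign.

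**Figure D4:**
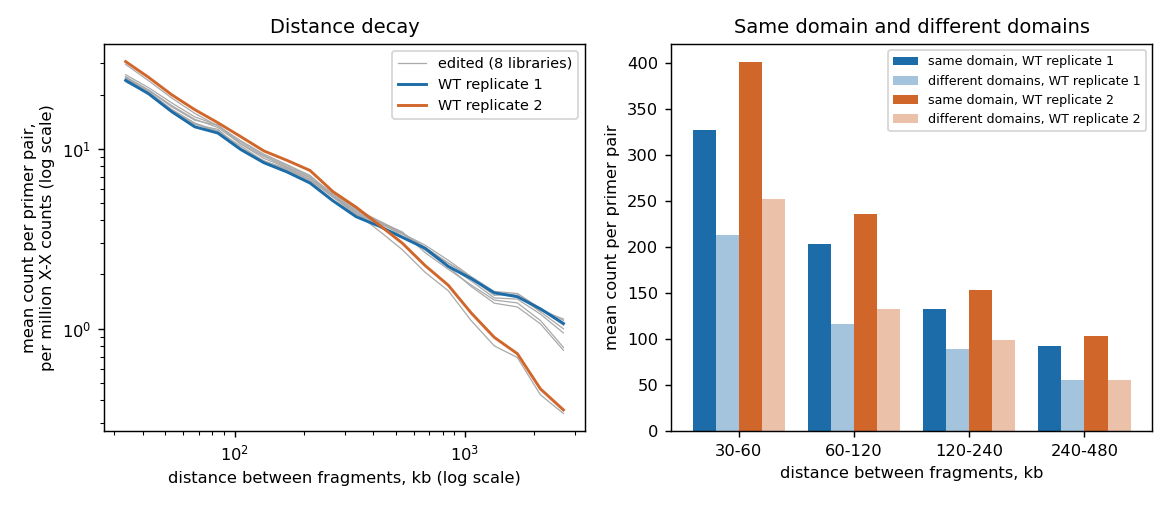
Left, mean count per primer pair per 1e6 X counts against the distance between fragments in kb, both axes logarithmic, for the 8 edited libraries (grey) and both wild-type libraries; right, mean count per primer pair within a domain and across borders in 4 distance classes of each wild-type library. Replicate 2 and 1 grey line, XiteE-inv replicate 2, fall below the others beyond about 1 Mb, and pairs within a domain are higher in all 4 classes of both libraries.

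The strongest contacts depended on how a bin pair was summarised. Ranked by summed O/E, as the lower of the libraries, over 7868 bin pairs at least 150 kb apart with at least 50 counts in each, the 10 strongest contacts all joined different domains, 600 to 3570 kb apart. In 9 of the 10, over 50% of the count came from 1 primer pair in both libraries. The strongest joined X:100721149-100751148 to X:103151149-103181148, 2430 kb apart, with 79661 counts and an O/E of 49.2 in replicate 1 and 21148 counts and an O/E of 63.4 in replicate 2. A single primer pair of its 41 gave 99.7% and 99.0% of these counts, and the median O/E over the pairs was 0 in both. The exception joined X:101711149-101741148 in domain 6 to X:102641149-102671148 in domain 8, with O/E of 12.8 and 13.4 and 22.3% and 23.8% of the count in 1 primer pair. Its median O/E over 24 primer pairs was 1.09 and 0.33, so its typical primer pair was not raised to that degree. Ranked without replicate 2, 6 of the 10 were found again. The edited libraries had the strongest contact too, with an O/E of 27.9 to 80.4.

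Primer pairs of that kind were few. In the mean of the 10 libraries 285 of 257047 pairs (0.111%) exceeded 20 times their expected count, 283 of them at least 150 kb apart and with a median distance of 1972 kb. They were spread over 187 forward and 199 reverse primers. They took 7.72% of X counts in replicate 1 and 1.86% in replicate 2. Since 8 of the 10 libraries that chose them were B100, like replicate 1, the choice favours pairs high in replicate 1, and 97 of the 285 exceeded 20 times their expected count in both wild-type libraries. Their origin was not tested.

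Ranked by the median O/E over primer pairs, 10 other contacts came first, none of them within 1 bin of a contact of the summed ranking. Of the 10, 6 lay within a domain, against 9.66% of all ranked bin pairs. That share is not matched for distance and the domains were called on these maps, so this is a description. Only 4 of the 10 rest on more than 4 primer pairs, and these are described. The strongest joined X:101291149-101321148, next to border 5, to X:102191149-102221148 in domain 7, 900 kb away, with 5281 counts and a median O/E of 4.47 in replicate 1 and 3443 counts and 4.92 in replicate 2, from 22 primer pairs. The second joined the first bin of domain 2 to its last, X:99431149-99461148 to X:99641149-99671148, with 3.38 and 3.30 from 15 primer pairs. The next lay within domain 5, between X:100811149-100841148 and X:101171149-101201148, with 3.40 and 3.27 from 24 primer pairs, each seen in both libraries. The last joined the first bin of domain 8 to its last, X:102311149-102341148 to X:102941149-102971148, with 4.01 and 3.12 from 8 primer pairs. In the edited libraries the median O/E of these contacts was 3.26, 3.20, 3.10 and 3.25 in the order given.

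The libraries agreed well at short range and poorly at long range. Over 10292 bin pairs, Pearson's r of log2(O/E + 0.1) between replicate 1 and replicate 2 was 0.451 and Spearman's rho 0.515, given as a description since bin pairs share primers and libraries share the primer pool. By distance, r was 0.819 under 150 kb, 0.815 at 150 to 300 kb, 0.738 at 300 to 600 kb, 0.595 at 600 to 1200 kb, 0.381 at 1200 to 2400 kb and 0.234 beyond. The median bin pair held 5636 counts in replicate 1 and 6652 in replicate 2 in the nearest of these classes, and 118 and 47.0 in the farthest. In the nearest class 1.02% of bin pairs differed by more than 2-fold, and in the farthest 41.9%. The other pairs of replicates had r of 0.430 to 0.719. The lowest of these was the other pair that joins a B101 to a B100 library, and the 28 pairs of B100 libraries, most of them of different genotypes, had 0.568 to 0.767. The pair of B101 libraries had 0.523, within the range of 0.424 to 0.536 of the 16 pairs across codes. For raw counts on the log2 scale the B101 pair had 0.896, pairs across codes 0.789 to 0.885 and B100 pairs 0.814 to 0.933.

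Agreement at single primer pairs fell with distance too. Of the 269808 pairs, 103057 were seen in both libraries, 53667 in replicate 1 alone, 42629 in replicate 2 alone and 70455 in neither. In 4779 pairs replicate 1 listed 0 where replicate 2 had at least 50 counts, and in 7780 pairs replicate 2 listed 0 where replicate 1 had at least 50. At 240 to 480 kb, 4.94% of pairs were of the first kind and 1.21% of the second. At 1920 to 3840 kb, 0.193% were of the first kind and 3.82% of the second. The counts differed by far more than sampling noise, with a chi-square per degree of freedom of 49.7 over 123272 pairs, so the libraries are not a single library deposited under 2 names.

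**Figure D5:**
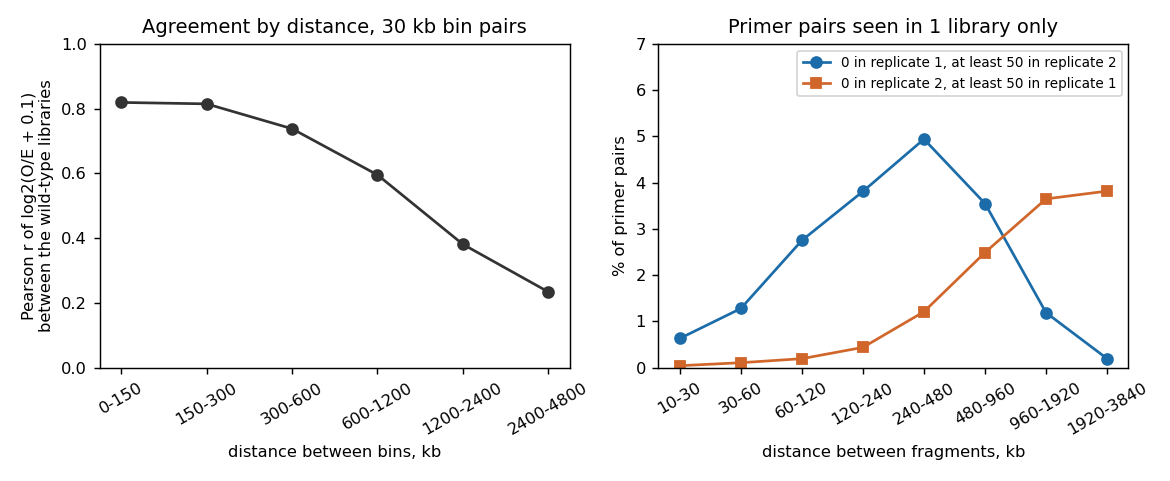
Left, Pearson's r of log2(O/E + 0.1) between the wild-type libraries over 30 kb bin pairs, by the distance between bins in kb; right, the percentage of primer pairs listed at 0 in one wild-type library and with at least 50 counts in the other, by the distance between fragments in kb. Agreement drops from 0.819 to 0.234 with distance, and pairs missing from replicate 1 are most common at 240 to 480 kb while those missing from replicate 2 are most common beyond 960 kb.

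The B101 libraries had more contacts at short range and fewer at long range than the B100 libraries. In edgeR's quasi-likelihood test with genotype as a term, 2518 of 10480 bin pairs (24%) differed at an adjusted p of 0.05, with 474 higher (4.52%) and 2044 lower (19.5%). Without XiteE-inv replicate 1 the count was 1424, and without XiteE-inv replicate 2 it was 1446. Under 150 kb, 340 of 692 pairs were higher and 13 lower. Beyond 2400 kb, 1 of 2377 was higher and 707 were lower. The median log2 difference (B101 minus B100) was 0.36 under 150 kb, -0.21 at 600 to 1200 kb and -1.56 beyond 2400 kb. At under 600 kb, of 1349 pairs within a wild-type domain 382 were higher and 25 lower, with a median of 0.28, and of 1230 pairs across borders 65 were higher and 97 lower, with a median of 0.09; the difference between these sets was not tested. With library totals as scale 81.2% of the calls were lower and the median over all pairs was -0.40. With TMM scaling 54.8% of 2789 calls were lower and the median was -0.08, so the direction of single pairs is relative to that shift of the scale.

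Named here are the 3 rises and the 3 falls with the smallest adjusted p. X:99611149-99641148 with its neighbour X:99641149-99671148, in domain 2, had 4545 and 5060 CPM (counts scaled to a common library total) in the B101 libraries and 2633 to 3180 in the B100 libraries (median 2909.9), a log2 difference of 0.77 ± 0.08 (SE, adjusted p = 6.0e-07). A single primer pair of its 27 gave 73.1% of the counts in wild-type replicate 1 and 77.8% in replicate 2. X:99551149-99581148 with itself, also in domain 2, had 0.77 ± 0.08, and X:99131149-99161148 with itself, in domain 1, had 0.84 ± 0.09. In all 3 the B101 libraries lay above every B100 library. The clearest fall was between X:99311149-99341148 and X:101081149-101111148, 1770 kb apart, with 104 and 137 CPM in the B101 libraries and 1559 to 2149 in the B100 libraries, a log2 difference of -3.86 ± 0.12 (adjusted p = 1.6e-14). The other named falls, at 1710 and 810 kb, were -3.32 ± 0.10 and -3.09 ± 0.10. In each of the 3 falls a single primer pair gave 94.9% to 98.7% of the counts in wild-type replicate 1 and 89.8% to 92.6% in replicate 2. The code was not shared evenly by genotypes, since 1 wild-type and 1 XiteE-inv library carried B101, and what it stands for cannot be told apart from other differences between these libraries and the rest.

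Between the mean of the edited genotypes and wild type, no bin pair of the map passed the edgeR test. Such a mean dilutes a change in a single edit, and opposite changes can cancel. Single edits were not tested against wild type here. In edgeR's quasi-likelihood fit of the 10 libraries by genotype, 0 of 10480 bin pairs (0%) differed between the mean of the edited genotypes and wild type at an adjusted p of 0.05, while 240 had an unadjusted p under 0.05. DESeq2 called 12, of which 11 were higher and 1 lower in the edited genotypes. Residual degrees of freedom were 5, the biological coefficient of variation was 55.7%, and one of the wild-type libraries carried B101. With the code as a term edgeR called 9 pairs, all lower in the edited genotypes, so these alternatives differed in direction.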

How the data were processed

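5C libraries of male mouse ES cells were analysed: 2 wild-type and 8 edited. The deposited 5C files hold whole-number counts of reads per pair of forward and reverse primers, and the deposited primer lists give fragment positions on mm9 (positions, with no measured unit). The submitters' processing notes name Bowtie2 and the build mm9; filters on reads are not given in the sources used here. The counts are used as deposited. Other 5C samples of the series were not analysed here.

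Primers with under 5% of the median total of their kind in either wild-type library were left out, which kept 503 forward and 514 reverse primers. For each library the expected count of a pair was a forward factor times a reverse factor times a function of distance in 40 classes, fitted by 60 rounds of proportional scaling on pairs at least 10 kb apart, with borders and domains playing no part. O/E of a 30 kb bin pair is summed observed over summed expected counts, or, where stated, the median over its primer pairs. Insulation used a square of 5 bins, with at least 3 bins holding primers on each side. Bin-pair counts with a mean of at least 10 were tested in 1 fit of the 10 libraries with edgeR 4.0.16 in R 4.3.3, with library totals as offset, the quasi-likelihood F test and Benjamini-Hochberg adjustment at 0.05. DESeq2 1.42.0 was an alternative. Slopes and border insulation were compared by exact two-sided permutation. Python 3.11.15, numpy 2.4.6, scipy 1.17.1 and pandas 2.3.3 were used, and the border caller and the edgeR fits were tested on simulated data.

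The members, lists and tests were chosen with earlier results of these data known. Named items were all wild-type borders, the 10 strongest contacts (skipping neighbours within 1 bin), the 3 called rises and 3 called falls of smallest adjusted p in each edgeR comparison, and the fragments under 5% of the wild-type mean in both deletion libraries. Totals of 16267499 to 23928188 counts give narrow counting intervals for shares of a library; PCR reads are not independent molecules, so intervals cover counting error only. Alternatives were another square, bin size and prominence, no primer correction, TMM, other filters, the replicate block, and each library left out. Those without outlying primer pairs, within B100, and by the median over pairs for border insulation were chosen after seeing the data.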

Additional observations from a re-analysis of the deposited data

Results flagged for a closer look

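At border 4, X:100661148, the XiteC and the XiteE edits differed from each other relative to the same wild-type libraries. The 4 XiteC libraries had insulation of -0.39, -0.32, -0.49 and -0.52, the 4 XiteE libraries -0.91, -0.97, -0.92 and -0.996, and the wild-type libraries -0.80 and -0.91. The groups did not overlap, and the difference (XiteC minus XiteE) was 0.52 on the log2 scale in an exact two-sided permutation test of the 70 splits (p = 0.0286, the smallest this design can give). Adjusted over the 8 borders the p was 0.229. A border that reaches the smallest p alone cannot pass this correction, so the adjusted p does not decide here. The 1 B101 library among them, XiteE-inv replicate 2, had -0.996. The XiteC libraries join a deletion and an inversion, which differed at the edge 30 kb before border 4. In the plotted traces that edge had -0.71 and -0.78 in XiteC-inv, and -0.46 and -0.58 in wild type. XiteC-del had -0.197 and -0.201 there. The dip of XiteC-inv was thus lowest 30 kb earlier and deeper there than wild type. Only XiteC-del was shallower than wild type at both edges.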

How the results depend on the processing

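The 8 wild-type borders numbered 7 to 8 with either library left out, and borders 1, 4, 5 and 8 were found under all 9 alternatives of square, bin size, prominence, primer correction, summary and outlying pairs. A square of 8 bins gave 5 borders. Border 6 was found under 5 of the 9. Of the 10 strongest contacts, 0 were found again by the median over primer pairs and 1 without outlying primer pairs; 6 to 8 were found with a wild-type library left out. Replicate agreement (0.451) was 0.679 in 60 kb bins, 0.817 for raw counts on the log2 scale and -0.281 over single primer pairs, where the filter on a mean of 10 counts by its construction keeps pairs high in only 1 library. The slope difference (0.080) turned to -0.059 without wild-type replicate 2 and to -0.027 within B100, with a range of -0.059 to 0.219 over libraries left out. The 0 bin pairs called between edited and wild-type libraries became 9 with the B code as a term and 12 with DESeq2, and stayed at 0 with any library left out. The 2518 calls of B101 against B100 became 4053 with DESeq2 and 1535 of 2701 tested in 60 kb bins (2518 of 10480 in 30 kb bins), with 1424 to 2634 over libraries left out. Same-numbered libraries did not deviate together in every pair of genotypes: over 10 pairs the correlation ran from -0.109 to 0.441, and the 3 over 0.1 were wild type with XiteE-inv (0.441), wild type with XiteC-inv (0.141) and XiteE-inv with XiteC-inv (0.110). With the replicate number as a block 1556 pairs were called for the code and 0 for the edits. No test of border insulation passed under the other squares, no primer correction or the median over pairs, or with an edited library left out. In those settings a border that reached the smallest p alone could not pass after adjustment. With a wild-type library left out or within B100 the design cannot reach the threshold even before adjustment. The difference at border 1 turned to 0.02 with squares of 3 and of 8 bins (0.0226 and 0.0238) and by the median over pairs (0.0228); at border 5 it turned to -0.0569 and -0.0030 with those squares; without wild-type replicate 2 it turned at border 2 (-0.0136; 0.339 without replicate 1) and border 7 (-0.0278; 0.246 without replicate 1), and within B100 at border 7 (-0.0085). The causes were not tested. Beyond 2400 kb the median bin pair of replicate 2 held 47.0 counts, which limits what can be read there.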
